A study of Arabidopsis thaliana with 18 samples.

Results

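EXLA1, EXLA2, EXPA8 and XTH33 are Arabidopsis thaliana genes for proteins that act on the plant cell wall, and their transcripts were followed here across 3 genotypes and 2 lights. The members are the probe sets whose platform annotation names exactly 1 of these genes. There are 4 of them, 1 per gene, of 22810 probe sets in the table and 13350 genes named this way: EXLA1 (AT3G45970, probe set 252563_at), EXLA2 (AT4G38400, 252997_at), EXPA8 (AT2G40610, 255822_at) and XTH33 (AT1G10550, 263207_at). All 4 passed the filter on dim probe sets, which asked for a log2 intensity above 4 on at least 3 arrays. EXLA1, EXLA2 and EXPA8 were above it on all 18 arrays and XTH33 on 13. No genome build is named for the arrays, so no coordinates are given. In the TAIR10.1 gene table the protein-coding gene next to EXLA1 is EXLA3, another gene of the same family, and the other members have no family member beside them.

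Plant cells enlarge when the wall yields to turgor. Expansins loosen the bonds between wall polymers at acid pH without cutting them, and auxin promotes growth in part by acidifying the wall. EXPA8 is an alpha-expansin, the class for which this activity is best known. EXLA1 and EXLA2 are expansin-like A proteins, which share the expansin domains but for which wall loosening has not been clearly shown. XTH33 belongs to the xyloglucan endotransglucosylase/hydrolases (XTHs), enzymes that cut xyloglucan chains and rejoin them to others. Plants sense neighbours by the drop in red relative to far-red light (R:FR) under or beside other leaves, and stems and petioles elongate in response.

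Whole seedlings of the wild type Col-0 and of the mutants sav3-2 and sav1-1, both in the Col-0 background, were 7 days old. All were grown on half-strength Murashige Skoog medium at 22 °C in continuous simulated white light (Wc) made of 13 µmol m-2 s-1 red and 1.23 µmol m-2 s-1 blue. Groups named SH then received 1 h in which 20.2 µmol m-2 s-1 of far-red was added to the same red and blue, giving an R:FR of 0.7. Each of the 6 groups has 3 arrays, given as independent biological replicates, and sav3-2 is known as a mutant of the auxin synthesis gene TAA1, whereas the sources used here do not name the gene altered in sav1-1. Each mutant is represented by 1 allele.

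Across the 18 arrays the median deposited intensity lay between 34.4 and 65.6, and after quantile normalization arrays of one group correlated with r from 0.973 to 0.987 over 17125 probe sets. The labelled tissue could be checked on few markers, since 1 of 15 listed green shoot genes and 2 of 13 listed root genes were named by a probe set, and none of the 9 seed storage and 6 flower genes. RCA, the activase of Rubisco in green tissue, lay between 6541 and 8443 on every array, and the root hair expansin genes EXPA7 and EXPA18 between 20.1 and 63.7 and between 27.6 and 66.7. Because RNA came from whole seedlings, fewer cells of a type and less RNA per cell cannot be told apart in any value below. Levels are quantile normalized intensities, and differences are on the scale of log2(intensity + 16), whose lower end is at 4 and on which changes of dim genes are understated. The fit was limma over all 18 arrays, with Benjamini-Hochberg adjustment over all 17125 probe sets, and a call is an adjusted p under 0.05. Levels are not compared between genes, because probe sets differ in brightness.

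**Figure D1:**
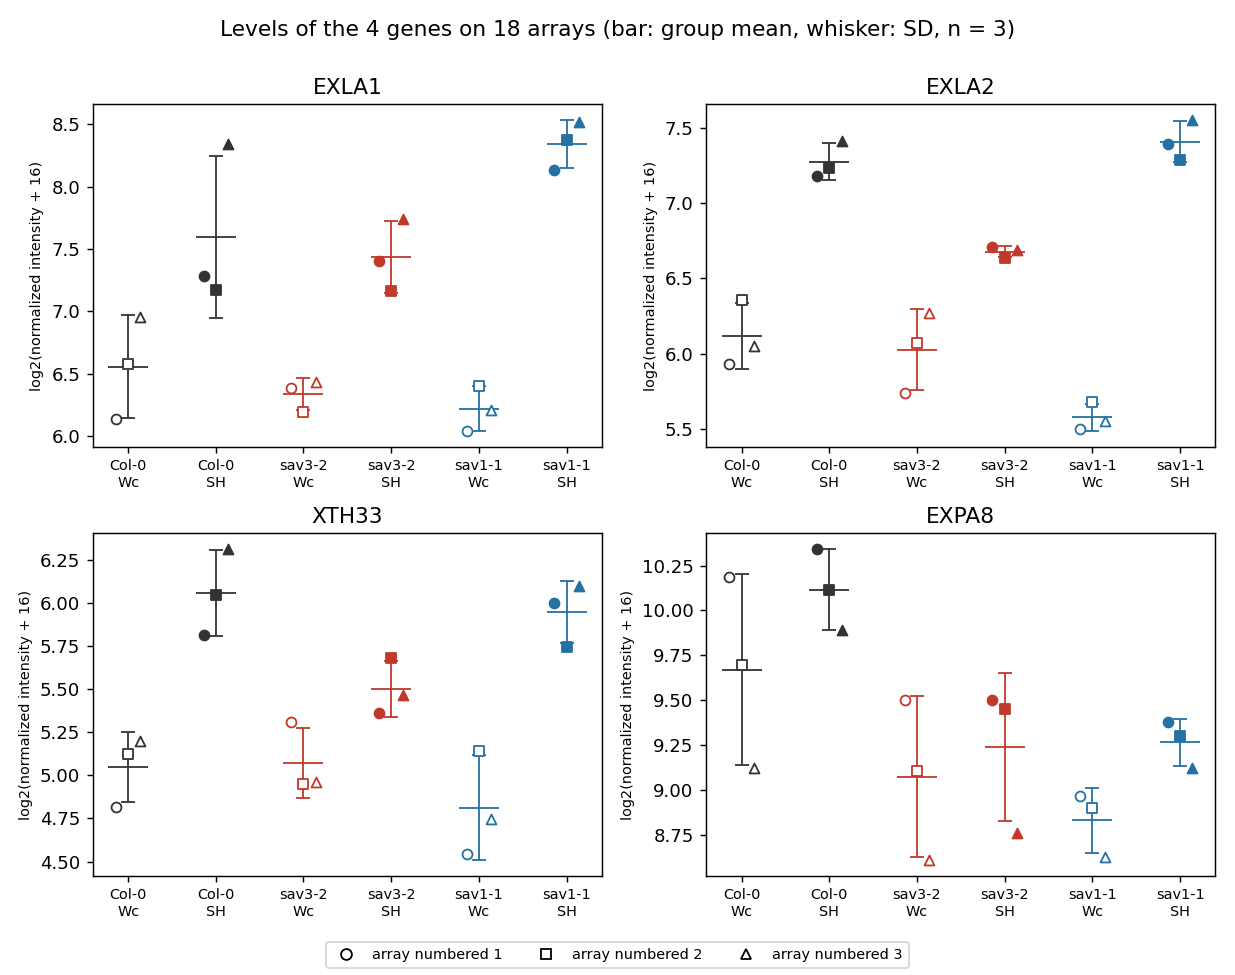
Level of each gene, as log2(normalized intensity + 16), on each of the 18 arrays by genotype and light, with open symbols for white light and filled symbols for low R:FR, symbol shapes for the array number, and bars and whiskers for the group mean and SD (n = 3). EXLA1 and EXLA2 are higher on all low R:FR arrays than on all white light arrays of the same genotype, whereas the EXPA8 arrays of the 2 lights overlap in Col-0 and sav3-2 and its Col-0 means lie above those of the mutants.

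EXLA1 rose within 1 h of low R:FR in all 3 genotypes, with its largest mean increase in sav1-1. In Col-0 its normalized intensity was 54.2, 79.7 and 108 on the white light arrays numbered 1 to 3 and 139, 128 and 309 on the low R:FR arrays. Every low R:FR array was above every white light array, with array 3 the highest in each light. The increase was 1.04 in log2 units (SE 0.24, limma adjusted p = 0.0263), from 6.56 ± 0.41 to 7.60 ± 0.65 (SD, n = 3). This call ended without white light array 1 (0.83, adjusted p = 0.174), without white light array 2 (1.05, adjusted p = 0.0922) and without low R:FR array 3 (0.67, adjusted p = 0.155).

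In sav3-2 the EXLA1 intensity was 67.5, 57.1 and 70.2 in white light and 153, 127 and 198 after low R:FR, again without overlap. The increase was 1.1 (SE 0.24, limma adjusted p = 0.023), from 6.33 ± 0.13 to 7.44 ± 0.29 (SD, n = 3). The call was kept in 1 of 6 fits that left out one of these arrays, the fit without low R:FR array 2. It ended without white light array 1, 2 or 3 (1.13, 1.03 and 1.15; adjusted p = 0.0768, 0.115 and 0.0552) and without low R:FR array 1 or 3 (1.12 and 0.95; adjusted p = 0.102 and 0.119). The size of the increase thus stayed between 0.95 and 1.24 while the adjusted p moved across the threshold.

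In sav1-1 EXLA1 stood at 49.9, 68.6 and 58.0 in white light and at 265, 315 and 350.3 after low R:FR. The increase was 2.12 (SE 0.24, limma adjusted p = 6.21e-06), a change of 4.35-fold on this scale, from 6.22 ± 0.18 to 8.34 ± 0.19 (SD, n = 3). The call was kept in all 6 fits without one of these arrays. In order of mean level, sav1-1, Col-0 and sav3-2 after low R:FR came before Col-0, sav3-2 and sav1-1 in white light. The only gap without overlap between neighbours in this order was the 0.88 between sav3-2 after low R:FR and Col-0 in white light.

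EXLA2, the close relative of EXLA1, rose in all 3 genotypes as well. In Col-0 its intensity was 45.1, 66.1 and 50.4 in white light and 129, 135 and 154 after low R:FR. The lights did not overlap, and the arrays within each light lay close together. The increase was 1.16 (SE 0.14, limma adjusted p = 1.89e-05), from 6.12 ± 0.22 to 7.28 ± 0.12 (SD, n = 3), and the call was kept in all 6 fits without one of these arrays.

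In sav3-2 EXLA2 stood at 37.4, 51.1 and 61.3 in white light and at 88.5, 83.5 and 87.0 after low R:FR. The 3 low R:FR values differ little from each other, and all exceed the white light values. The increase was 0.65 (SE 0.14, limma adjusted p = 0.0226), from 6.03 ± 0.27 to 6.68 ± 0.04 (SD, n = 3). With a pseudocount of 64 in place of 16 it was 0.41, and it was still called. The call ended without white light array 1 or 2 (0.51 and 0.67; adjusted p = 0.174 and 0.0649) and without low R:FR array 1, 2 or 3 (0.64, 0.67 and 0.64; adjusted p = 0.114, 0.0799 and 0.0672).

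In sav1-1 EXLA2 stood at 29.2, 35.2 and 31.0 in white light and at 152, 139.7 and 172 after low R:FR. The increase was 1.83 (SE 0.14, limma adjusted p = 1.60e-08), or 3.56-fold, from 5.58 ± 0.09 to 7.41 ± 0.14 (SD, n = 3). It was called in every setting tried and ran from 1.19 with a pseudocount of 64 to 2.24 with a pseudocount of 1. Among the 6 groups, sav1-1 had both the highest mean, after low R:FR, and the lowest, in white light. Sav1-1 after low R:FR overlapped with Col-0 after low R:FR, and Col-0 in white light with sav3-2 in white light, while the other neighbours in the order did not overlap.

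XTH33 was dim in white light and higher after low R:FR, and its increase was called in Col-0 and sav1-1. In Col-0 its intensity was 12.2, 18.8 and 20.8 in white light and 40.3, 50.1 and 63.4 after low R:FR. All low R:FR arrays were above all white light arrays. The increase was 1.01 (SE 0.19, limma adjusted p = 0.00366), from 5.05 ± 0.20 to 6.06 ± 0.25 (SD, n = 3). It ran from 0.50 with a pseudocount of 64 to 1.52 with a pseudocount of 1, and the call ended without all arrays numbered 3 (0.95, adjusted p = 0.062) and on the values as deposited (0.87, adjusted p = 0.0924).

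In sav1-1 XTH33 stood at 7.36, 19.3 and 10.9 in white light and at 47.9, 37.7 and 52.5 after low R:FR. The groups did not overlap, and array 2 had the smallest difference, 0.60 against 1.45 and 1.35 for arrays 1 and 3. The increase was 1.13 (SE 0.19, limma adjusted p = 0.000753), from 4.81 ± 0.30 to 5.95 ± 0.18 (SD, n = 3). It was called in every setting tried and ran from 0.52 to 1.88 between pseudocounts of 64 and 1.

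In sav3-2 XTH33 stood at 23.6, 15 and 15.1 in white light and at 25.1, 35.2 and 28.1 after low R:FR. The low R:FR arrays were all higher, but the difference on arrays numbered 1 was 0.05. The mean difference was 0.43 (SE 0.19, 95% interval 0.04 to 0.81) and was not called (limma adjusted p = 0.522). In order of mean level, Col-0 and sav1-1 after low R:FR overlapped at the top, sav3-2 after low R:FR stood apart from both sides, and the 3 white light groups overlapped.

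EXPA8, the alpha-expansin, was not called in any of the 3 shade responses. In Col-0 its intensity was 1149.9, 814 and 542 in white light and 1282, 1093 and 933 after low R:FR. The ranges overlap, although each low R:FR array was above the white light array of the same number. The difference was 0.45 (SE 0.23, 95% interval -0.04 to 0.93, limma adjusted p = 0.671), from 9.67 ± 0.53 to 10.12 ± 0.23 (SD, n = 3).

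In sav3-2 EXPA8 stood at 709, 536 and 374 in white light and at 708, 684 and 418 after low R:FR, a difference of 0.17 (SE 0.23, limma adjusted p = 0.911). In sav1-1 it stood at 483, 461 and 379 in white light and at 649, 613 and 541 after low R:FR. There the lights did not overlap, and the 3 same-numbered differences were alike at 0.41, 0.40 and 0.50. The mean difference of 0.44 (SE 0.23, 95% interval -0.05 to 0.92) was not called (limma adjusted p = 0.674).

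**Figure D2:**
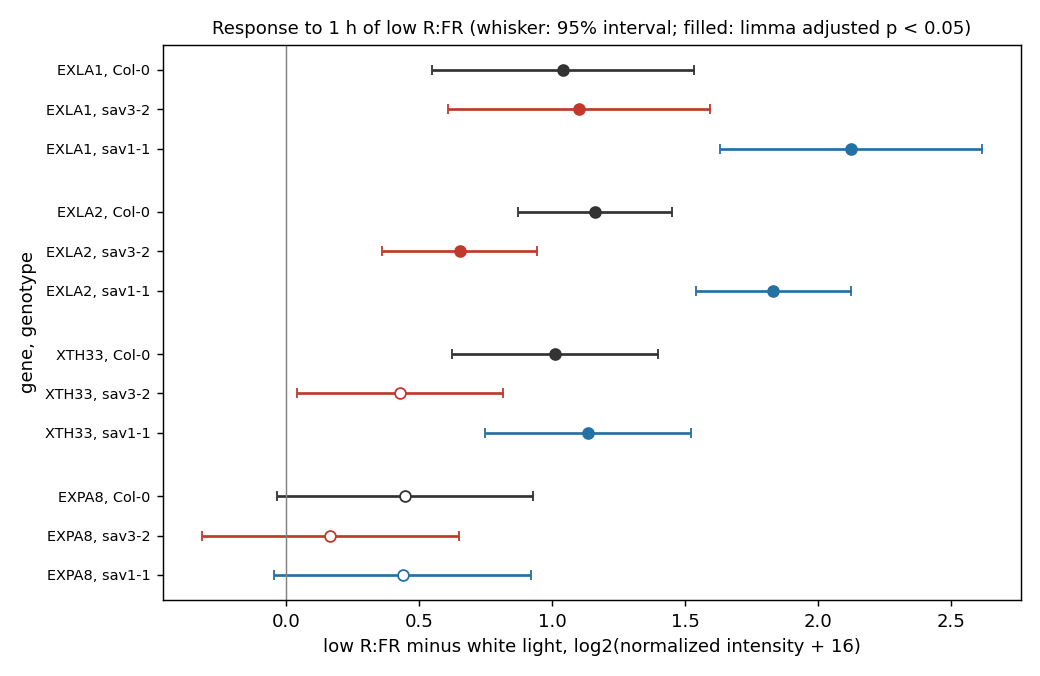
Difference between low R:FR and white light, as log2(normalized intensity + 16), for each gene and genotype, with 95% intervals from the limma fit and filled points where the adjusted p was under 0.05. EXLA1 and EXLA2 have their largest values in sav1-1 (2.12 and 1.83), XTH33 is smallest in sav3-2 (0.43), and the EXPA8 intervals include 0.

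By count, 3 of the 4 genes rose in Col-0, where 0.94% of all probe sets tested were called higher. In sav3-2 2 of 4 rose against 0.631% of all, and in sav1-1 3 of 4 against 1.38%. None was called lower. The 4 genes had a median response of 1.03 in Col-0, 0.54 in sav3-2 and 1.48 in sav1-1, where the median of all probe sets tested was -0.0117, -0.00763 and -0.0116. The lights did not overlap for 3 members in Col-0, 3 in sav3-2 and 4 in sav1-1, all higher after low R:FR, against 5.62%, 6.56% and 7.36% of all probe sets in that direction. The 3 responses rest on separate arrays but share the estimate of the spread. Because the 4 genes were chosen with earlier results of these data known, these counts and medians are descriptions and not a test.

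The difference in response between genotypes was tested directly. EXLA2 rose by 1.83 in sav1-1 and by 0.65 in sav3-2, and this difference of 1.18 (SE 0.20, 95% interval 0.77 to 1.59) was called (limma adjusted p = 0.0149). It was the 1 member called in that contrast, in which 0.0409% of all probe sets were called higher. EXLA2 kept this call in 6 of 12 fits without one of the arrays compared. It ended without sav1-1 Wc array 1 (1.15, adjusted p = 0.0582), without sav3-2 Wc array 2 or 3 (1.16 and 1.06; 0.0648 and 0.0701), without sav1-1 SH array 1 or 3 (1.19 and 1.11; 0.0544 and 0.0782), without sav3-2 SH array 2 (1.16; 0.0689), and without all arrays numbered 3 (0.97; 0.565).

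The other differences in response were not called. For sav1-1 minus sav3-2, EXLA1 stood at 1.02 (SE 0.33), XTH33 at 0.71 (SE 0.26) and EXPA8 at 0.27 (SE 0.33), all at a limma adjusted p of 0.999824. For sav1-1 minus Col-0, EXLA1 stood at 1.08 (SE 0.33, 95% interval 0.38 to 1.78), EXLA2 at 0.67 (SE 0.20), XTH33 at 0.12 (SE 0.26) and EXPA8 at -0.01 (SE 0.33). That contrast has no call among all probe sets (0%), with 431 at an unadjusted p under 0.05, EXLA1 and EXLA2 among them. For sav3-2 minus Col-0, EXLA2 stood at -0.51 (SE 0.20), XTH33 at -0.58 (SE 0.26), EXPA8 at -0.28 (SE 0.33) and EXLA1 at 0.06 (SE 0.33), where 0.0409% of all probe sets were called. These contrasts share arrays in pairs, so their values are not independent. The root hair genes EXPA7 and EXPA18 stood at 0.10 and -0.06 in the difference of sav1-1 from sav3-2.

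Levels were then compared between genotypes within a light. The root hair genes EXPA7 and EXPA18 differed in mean between genotypes, with no difference called. They were higher on every sav1-1 array than on every sav3-2 array in both lights. The difference was 0.61 and 0.54 in white light (limma adjusted p = 0.234 and 0.132) and 0.71 and 0.48 after low R:FR (adjusted p = 0.0685 and 0.153). All probe sets that did not overlap and were higher made up 6.32% and 7.4% in these comparisons. Against Col-0, EXPA7 and EXPA18 stood in sav1-1 at 0.40 and 0.37 in white light and at 0.40 and 0.19 after low R:FR. In sav3-2 they stood at -0.21 and -0.17 and at -0.30 and -0.29. Their part in the values that follow was not tested. In white light no member was called between any of the genotypes, where 0.479% of all probe sets were called for sav3-2 against Col-0, 0.0934% for sav1-1 against Col-0 and 0.66% for sav1-1 against sav3-2. EXLA1 and XTH33 overlapped in all of these comparisons. EXLA2 was lower on every sav1-1 array than on every array of Col-0 (-0.54, SE 0.14, limma adjusted p = 0.198) and of sav3-2 (-0.45, SE 0.14, adjusted p = 0.238), differences that were not called. All probe sets that do not overlap and are lower made up 6.11% and 6.44% in these comparisons.

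After low R:FR, EXLA2 was lower in sav3-2 than in Col-0 by a log2 difference of -0.60 (SE 0.14, limma adjusted p = 0.0353), the 1 member called in this comparison, where 0.642% of all probe sets were called lower. That call was kept in 0 of 6 fits without one of the arrays compared, with differences from -0.65 without Col-0 SH array 1 and -0.62 without Col-0 SH array 2 to -0.53 without Col-0 SH array 3, and of -0.61, -0.58 and -0.60 without sav3-2 SH array 1, 2 and 3. It also ended without sav1-1 SH array 1 (-0.60, adjusted p = 0.051). EXLA2 was higher in sav1-1 than in sav3-2 by 0.73 (SE 0.14, limma adjusted p = 0.00689), where 0.87% of all were called higher. The arrays did not overlap for EXLA2, EXLA1 and XTH33, higher in sav1-1, against 7.4% of all probe sets, and the EXLA2 call ended without sav1-1 SH array 3 (0.66, adjusted p = 0.0527) and without all arrays numbered 3 (0.66, adjusted p = 0.0562).

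EXLA1 was higher on every sav1-1 array than on every sav3-2 array after low R:FR, by 0.90 (SE 0.24, limma adjusted p = 0.0655). This difference was not called, but it was when the array number was a block (SE 0.18, adjusted p = 0.0035), and in fits without Col-0 SH array 3 (0.90, adjusted p = 0.00769) or Col-0 Wc array 1 or 3 (0.90 and 0.91; 0.045 and 0.0462), arrays that are not part of this comparison. Against Col-0 the EXLA1 difference in sav1-1 was 0.74 (SE 0.24, adjusted p = 0.296), and the groups overlapped through Col-0 SH array 3, without which it was called (1.12, adjusted p = 0.0159). XTH33 after low R:FR was lower on all sav3-2 arrays than on all Col-0 arrays (-0.56, SE 0.19, adjusted p = 0.211) and lower than on all sav1-1 arrays, which stood higher by 0.45 (SE 0.19, adjusted p = 0.446). Neither was called. Sav1-1 against Col-0 gave no call among the members, where 0.204% of all probe sets were called.

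EXPA8 had lower means in both mutants than in Col-0 in both lights, and none of these 4 differences was called in the fit over all 18 arrays with equal weights and no block. In white light the difference was -0.60 in sav3-2 (SE 0.23, limma adjusted p = 0.508) and -0.84 in sav1-1 (SE 0.23, adjusted p = 0.244). After low R:FR it was -0.88 in sav3-2 (SE 0.23, adjusted p = 0.0787) and -0.85 in sav1-1 (SE 0.23, adjusted p = 0.189). The arrays did not overlap in 3 of these comparisons, the exception being sav3-2 in white light. For arrays that do not overlap and are lower, the share of all probe sets was 6.11% for sav1-1 in white light, 7.53% for sav3-2 and 7.24% for sav1-1 after low R:FR. Within a light both mutants are set against the same Col-0 arrays. Without Col-0 Wc array 3 the white light difference in sav1-1 was called (-1.11, adjusted p = 0.0374), and the low R:FR difference in sav3-2 was called without Col-0 Wc array 1 or 3 (both -0.88; adjusted p = 0.0385 and 0.0328) or sav3-2 Wc array 3 (-0.88; 0.0476). These white light arrays are not part of the low R:FR comparison. It was called in 0 of 6 fits without one of the low R:FR arrays compared. With array weights EXPA8 was called in sav1-1 in white light (-0.85, adjusted p = 0.0251) and in sav3-2 and sav1-1 after low R:FR (-0.87 and -0.89; 0.0265 and 0.0352), and both low R:FR differences were called in fits on the compared groups alone (adjusted p = 0.0455 and 0.017).

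The EXPA8 level went with the array number. In all 6 groups the array numbered 1 was the highest and the array numbered 3 the lowest, with mean deviations from the group mean of 0.28, 0.06 and -0.34 for numbers 1, 2 and 3. When the array number entered as a block the EXPA8 SE fell from 0.23 to 0.12. EXPA8 was then called lower in both mutants in both lights. The limma adjusted p was 0.00982 in sav3-2 and 0.000878 in sav1-1 in white light, and 6.79e-05 in sav3-2 after low R:FR. Without all arrays numbered 3 the differences were -0.65, -1.02 and -0.76 in the same order, and all 3 were called (adjusted p = 0.0415, 0.00427 and 0.00958). The sav1-1 difference after low R:FR was called in both of these fits as well, with values given below. With the block, probe sets called in white light went from 82 to 207 for sav3-2 and from 16 to 92 for sav1-1. After low R:FR they went from 177 to 397 and from 35 to 156, in either direction and of 17125 tested. Without all arrays numbered 3 they were 167 and 66 in white light and 257 and 66 after low R:FR, of 16533 tested. Averaged over both lights, a contrast added after the values had been seen, EXPA8 was lower by a log2 difference of -0.74 in sav3-2 (SE 0.16, adjusted p = 0.0146) and of -0.85 in sav1-1 (SE 0.16, adjusted p = 0.0089), where 1.33% and 0.782% of all probe sets were called lower. No other member was called in these averages.

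**Figure D3:**
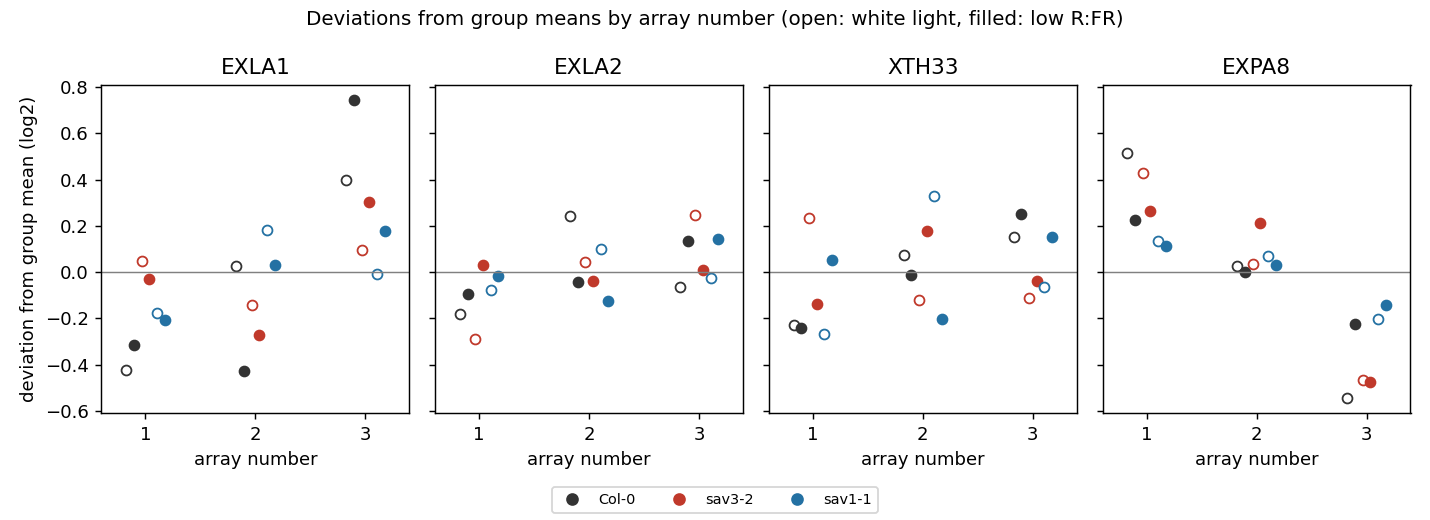
Deviation of each array from its group mean, in log2 units, against the array number for each gene, with open points for white light and filled points for low R:FR. EXPA8 is above its group mean on every array numbered 1 and below it on every array numbered 3, and EXLA1 is highest on the array numbered 3 in 5 of 6 groups.

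The other members followed the array number less regularly. EXLA1 was highest on the array numbered 3 in 5 of 6 groups (mean deviation 0.28), and EXLA2 and XTH33 in 3 of 6. After group means had been subtracted, EXLA1 and EXPA8 had a Pearson r of -0.64 over the 18 arrays, and EXLA1 and XTH33 of 0.54. Over the levels themselves r was 0.91 for EXLA1 with EXLA2, 0.92 for EXLA2 with XTH33 and 0.88 for EXLA1 with XTH33. EXPA8 had 0.16, 0.41 and 0.44 with EXLA1, EXLA2 and XTH33. These are descriptions over arrays that share groups and light, and the sources used here do not say what the array number stands for.

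Among 9468 other probe sets that name 1 gene, EXO (EXORDIUM), which is known as a brassinosteroid-induced gene that promotes growth, had the level pattern most like that of EXLA1 (r = 0.93 over 18 arrays). It was followed by CSLC04, a glucan synthase that makes the xyloglucan backbone (0.92), AT2G28080 (0.91), AT3G57450 (0.91) and EXLA2. EXLA2 was most like AT1G02660 (0.93), EXO (0.92), AT1G65920 (0.92), XTH33 (0.92) and AT2G44500 (0.92). For XTH33 the nearest were EXLA2, AT1G02660 (0.90), EXO (0.89), CSLC04 (0.89) and EXLA1. EXO is thus in the 5 nearest of EXLA1, EXLA2 and XTH33. EXPA8 shared no gene with them and was most like AT2G32560 (0.90), AT3G07010 (0.90), AT4G23820 (0.90), AT2G38610 (0.89) and AT5G11420 (0.87). For EXLA2 and AT1G02660 the r of deviations from group means was -0.09, so that likeness lies between groups. For EXLA2 it was 0.57 with EXO, -0.07 with AT1G65920, 0.22 with XTH33 and 0.61 with AT2G44500. For EXLA1 it was 0.73 with EXO, 0.65 with CSLC04, 0.78 with AT2G28080, 0.74 with AT3G57450 and 0.40 with EXLA2. XTH33 had -0.003 with AT1G02660, 0.49 with EXO, 0.47 with CSLC04 and 0.54 with EXLA1. The genes most like EXPA8 had 0.79, 0.74, 0.74, 0.64 and 0.85 in the order given. The part of the array number in these values was not tested.

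**Figure D4:**
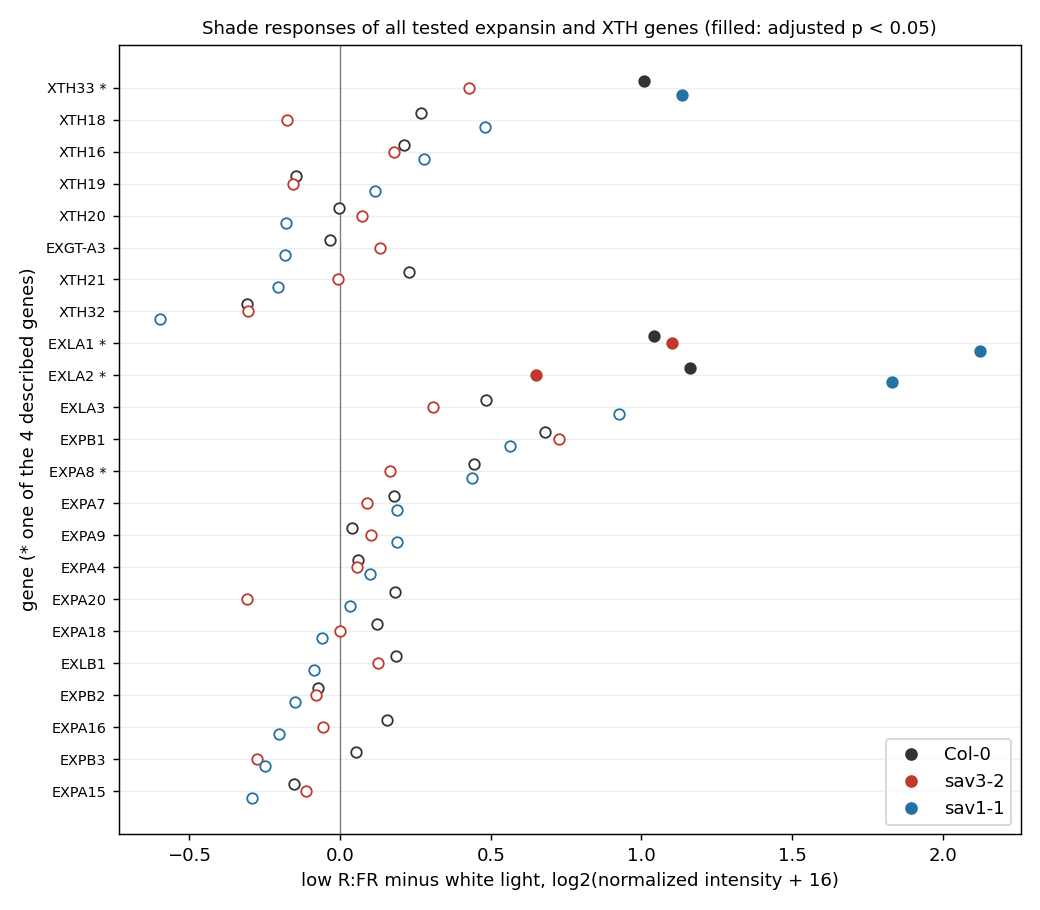
Difference between low R:FR and white light, as log2(normalized intensity + 16), in each genotype for all tested expansin and XTH genes, with filled points where the limma adjusted p was under 0.05 and asterisks on EXLA1, EXLA2, XTH33 and EXPA8. Filled points appear for EXLA1, EXLA2 and XTH33 alone, and the next largest values are those of EXLA3 and EXPB1.

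Other genes of both families were read from the same fit, where a probe set naming 1 gene carried a family symbol or synonym. Family genes on unnamed probe sets or on probe sets naming several genes were not looked at. Of 25 other expansin and XTH genes named by a probe set, 19 passed the filter, 12 expansins and 7 XTHs. None of the 19 was called in any of the 12 comparisons in the limma fit over all arrays, although EXPB1 and EXLA3 were called in shade responses under several other settings given below. At an unadjusted p under 0.05 there were 1, 2 and 4 of the 19 in the shade responses of Col-0, sav3-2 and sav1-1. Among all 17125 probe sets there were 1391, 1428 and 1456. EXPB3 in sav3-2 and XTH32 in sav1-1 were lower, and the rest of these were higher. The other comparisons had 0 to 5 of the 19, and 431 to 1860 of all probe sets. The median response of the 19 was 0.12 in Col-0, -0.00129 in sav3-2 and -0.06 in sav1-1. The 4 described genes had been picked with such values known, so the contrast between them and these other family genes is a description.

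By mean intensity over the 18 arrays, used to choose which genes to name and not to compare transcript levels, the 3 brightest of the 19 were EXGT-A3 and XTH16, both XTHs, and EXPB3, a beta-expansin. EXGT-A3 stood at -0.03, 0.13 and -0.18 in the shade responses of Col-0, sav3-2 and sav1-1, XTH16 at 0.21, 0.18 and 0.28, and EXPB3 at 0.05, -0.27 and -0.25. EXPB1, EXLA3 and XTH32 were singled out after their values had been seen. EXPB1, a beta-expansin, had the largest response of the 19 in Col-0 at 0.68 (SE 0.19, limma adjusted p = 0.119) and in sav3-2 at 0.73 (SE 0.19, adjusted p = 0.0954), and stood at 0.56 in sav1-1 (SE 0.19, adjusted p = 0.234). When the array number was a block it was called in all 3 genotypes, in sav3-2 (limma adjusted p = 0.00189), in sav1-1 (adjusted p = 0.0143) and in Col-0, given below. Without sav3-2 SH array 3 it was called in sav3-2 (1.01, adjusted p = 0.0023) and in Col-0 (0.68, adjusted p = 0.0227), and without sav3-2 SH array 1 in Col-0 (0.68, adjusted p = 0.0489). Of the 6 fits without one of the arrays compared, 0 called it in Col-0 and 1 in sav3-2. EXPB1 was called with array weights in Col-0, sav3-2 and sav1-1 (0.74, 0.78 and 0.57; adjusted p = 0.0217, 0.0187 and 0.046), without all arrays numbered 3 in Col-0 and sav3-2 (0.77 and 0.90; 0.00946 and 0.00272), and in the fit on the compared groups alone in sav1-1 (0.56; 0.0182). XTH32 stood at -0.31, -0.30 and -0.60 in Col-0, sav3-2 and sav1-1, the last being the lowest of the 19 in sav1-1.

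EXLA3, the neighbour and family member of EXLA1, was dim, with a mean intensity of 4.84, 4.11 and 5.01 in white light and of 13.7, 8.86 and 23.7 after low R:FR in Col-0, sav3-2 and sav1-1. Its response was 0.48 (SE 0.25, limma adjusted p = 0.664), 0.31 (SE 0.25, adjusted p = 0.82) and 0.92 (SE 0.25, adjusted p = 0.0635) in the same order. When the array number was a block the response in sav1-1 was called (adjusted p = 0.0432), as it was without Col-0 SH array 2 or 3 (both 0.93; 0.0412 and 0.0387), and with a pseudocount of 1 it was 2.25 (not called; 0.263). The Col-0 arrays are not part of that response, which was called in 0 of 6 fits without one of the sav1-1 arrays. EXLA3 in sav1-1 was also called on the values as deposited (0.93; 0.0458), with a pseudocount of 64 (0.34; 0.0378), without the filter (0.92; 0.0442), with array weights (0.80; 0.0483) and in the fit on the compared groups alone (0.92; 0.0469), and so in 6 of 8 settings other than the leaving out of single arrays. EXLA1 had 9 such settings, and in the remaining one EXLA3 did not pass the filter. Of the EXLA3 group means only that of sav1-1 after low R:FR lies above the filter level, a log2 intensity of 4. Passing the filter and being called there are therefore not separate facts. Cross-reaction between the EXLA probe sets was not tested, as probe sequences were not used here.

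Of the other wall gene lists, the xyloglucan synthesis list was represented by CSLC04 alone, which rose in sav1-1 by 0.69 (SE 0.11, limma adjusted p = 0.000782). CSLC04 stood at 0.34 in Col-0 (SE 0.11, adjusted p = 0.258) and at 0.30 in sav3-2 (SE 0.11, adjusted p = 0.401). The sav1-1 call was kept in all 6 fits without one of these arrays and ended on the values as deposited (0.79, adjusted p = 0.343). Of 5 pectin methylesterase genes named 4 were tested and none was called in a shade response, nor was COB, which orients cellulose microfibrils. Plasma membrane proton pumps, which acidify the wall, were not named by a probe set and were not analysed here.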

How the data were processed

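RNA from 18 Arabidopsis seedling samples was hybridised to Affymetrix arrays, and the deposited table holds an intensity, on a linear scale, for each probe set on each array. Per the submitters' processing notes GCRMA was used, with no version given; how it was run is not stated there. Array medians differed, so the 64 control probe sets were left out and the other 22746 quantile normalized. Probe sets with a log2 intensity above 4 on at least 3 arrays were kept (17125), and log2(value + 16) entered limma 3.58.1 under R 4.3.3 (6 group means, eBayes with trend) for 12 comparisons, two-sided. Groups came from the sample titles. The number of arrays limits the precision, and the files hold no detection calls. The fit was tested on simulated data with independent arrays and no shift by array number, so that test does not cover such a shift. Names came from the platform annotation, of which 13513 probe sets name 1 gene and 13484 matched the TAIR10.1 gene table; 8730 are unnamed here.

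The genes, lists and tests were chosen with earlier results of these data known. Named genes are the 4 members, other family genes that were called, the 3 brightest of these, called genes of the other wall lists, and for each member the 5 most correlated genes; EXPB1, EXLA3 and XTH32 were singled out on their values. Promoter motifs and sequences were not analysed here.

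Replicate numbers come from the titles. The main fit did not pair arrays by number, so its SEs and adjusted p are those of unpaired groups. Pairing entered only through the replicate block, an alternative. Deviations from group means of same-numbered arrays correlated above 0.1 for all 3 pairs in 7 of the 9 comparisons of a pair of groups. The lowest r there was 0.101. In the remaining comparisons the lowest was 0.0714 for the shade response in Col-0 and 0.0963 for sav1-1 against Col-0 after low R:FR. For differences in response the lowest was 0.00013, 0.0432 and 0.0625. Alternatives were no or median scaling, pseudocounts of 1 and 64, no filter, the replicate block, array weights, leaving out arrays, and fits on the compared groups alone.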

Additional observations from a re-analysis of the deposited data

Results flagged for a closer look

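The response of EXLA2 to low R:FR differed between the mutants in the main fit. It was larger in sav1-1 than in sav3-2 by 1.18 on the log2 scale (limma interaction contrast, adjusted p = 0.0149), with all 3 same-numbered differences larger in sav1-1 (1.89, 1.60 and 2.00) than in sav3-2 (0.97, 0.57 and 0.41). The call was kept in 6 of 12 fits without one of the arrays compared. It ended on the values as deposited and without all arrays numbered 3. Same-numbered arrays of these groups had a lowest r of deviations of 0.0625. Groups of 3 arrays are too small for a check of single arrays that stand apart.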

How the results depend on the processing

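The shade responses of EXLA2 in Col-0 and of EXLA1, EXLA2 and XTH33 in sav1-1 were called under all 27 alternatives tried. On the values as deposited, which move the median of all probe sets by between -0.16 in the Col-0 shade response and 0.27 in the sav3-2 minus Col-0 difference, calls ended for the shade response of EXLA1 (0.85) and XTH33 (0.87) in Col-0 and of EXLA2 in sav3-2 (0.75), for EXLA2 after low R:FR in sav3-2 against Col-0 (-0.40) and sav1-1 against sav3-2 (0.79), and for its difference in response between the mutants (1.14). Uncalled values changed sign there for XTH33 in sav3-2 (-0.067) and EXLA1 between the mutants (0.00356) in white light, for EXLA1 in sav3-2 (0.044) and XTH33 in sav1-1 (0.093) after low R:FR, and for the EXPA8 difference in response of sav3-2 (0.033) and sav1-1 (0.26) from Col-0. Median scaling turned the last of these to 0.011. Without the filter, calls ended for EXLA1 in Col-0 (1.04) and sav3-2 (1.1) and for EXLA2 in sav3-2 against Col-0 after low R:FR (-0.60), which also ended with a pseudocount of 1 (-0.68). Without the filter more probe sets enter both the fit and the adjustment (22746 against 17125). Why calls ended was not tested, in this setting or the others. A pseudocount of 64 called EXLA1 higher in sav1-1 than sav3-2 after low R:FR (0.75).

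When the replicate number was a block, calls of EXPA8 were gained in both mutants in white light (-0.60 and -0.84) and in sav3-2 after low R:FR (-0.88). The call of EXLA1 between the mutants after low R:FR (0.90) was gained too. In sav1-1 against Col-0 after low R:FR, EXPA8 (-0.85, limma adjusted p = 0.000607) and EXLA1 (0.74, adjusted p = 0.0395) were gained. EXPB1 was gained in Col-0 (0.68, adjusted p = 0.00307). The block changed no other member's call and raised the calls over all probe sets from 191 to 356 in Col-0, 138 to 277 in sav3-2 and 316 to 500 in sav1-1, and to between 0 and 404 in the other comparisons. With array weights, calls were gained for EXLA2 (-0.60) and EXPA8 (-0.85) in sav1-1 in white light, and after low R:FR for EXPA8 in sav3-2 (-0.87) and sav1-1 (-0.89) and EXLA1 between the mutants (0.95). Uncalled values changed sign for XTH33 in sav3-2 (-0.052) and EXLA1 between the mutants (0.022) in white light and for EXPA8 between the mutants after low R:FR (-0.017). In fits on the compared groups alone, calls ended for EXLA1 in Col-0 (1.04, adjusted p = 0.223) and EXLA2 in sav3-2 (0.65, adjusted p = 0.103), and were gained after low R:FR for EXPA8 in sav3-2 (-0.88) and sav1-1 (-0.85) and EXLA1 between the mutants (0.90).

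Without all arrays numbered 3, calls ended for XTH33 in Col-0 (0.95) and for EXLA2 after low R:FR in sav3-2 against Col-0 (-0.53) and sav1-1 against sav3-2 (0.66) and in its difference between the mutants (0.97). EXPA8 was then called in sav3-2 (-0.65) and sav1-1 (-1.02) in white light and in both after low R:FR (-0.76 and -0.90), and EXLA1 in sav1-1 against Col-0 (1.03) and sav3-2 (0.97) after low R:FR. Sign changes were EXLA1 in sav3-2 (0.0603) and EXPA8 between the mutants (-0.14) after low R:FR, and the EXPA8 difference of sav1-1 from Col-0 (0.12). In the average over both lights, set against white light, EXPA8 was gained (-0.74 and -0.85), and XTH33 in sav3-2 (-0.27) and EXLA1 in sav1-1 (0.20) changed sign.

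Leaving out single arrays, the shade response of EXLA1 ran from 0.67 to 1.26 in Col-0 and from 0.95 to 1.24 in sav3-2, and in sav3-2 that of EXLA2 from 0.51 to 0.77 and of EXPA8 from -0.067 to 0.40. In white light EXLA2 in sav3-2 ran from -0.21 to 0.055, XTH33 in sav3-2 from -0.092 to 0.10, and EXPA8 in sav1-1 from -1.11 to -0.58. After low R:FR, against Col-0, EXLA1 ran from -0.38 to 0.21 in sav3-2 and from 0.53 to 1.12 in sav1-1, EXLA2 in sav3-2 from -0.65 to -0.53, EXPA8 in sav3-2 from -1.01 to -0.64 and XTH33 in sav1-1 from -0.23 to 0.016. Between the mutants EXLA1 ran from 0.77 to 1.05, EXLA2 from 0.66 to 0.79 and EXPA8 from -0.21 to 0.16. Differences in response ran from -0.15 to 0.43 for EXLA1 in sav3-2 minus Col-0, from -0.27 to 0.26 for EXPA8 and -0.00797 to 0.29 for XTH33 in sav1-1 minus Col-0, and from 1.06 to 1.33 for EXLA2 between the mutants. Groups have 3 arrays and there are no detection calls. XTH33 lies near the low end of the scale, and its response depends on the pseudocount (0.50 to 1.52 in Col-0 and 0.52 to 1.88 in sav1-1).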
